A study of Mus musculus with 18 samples.

Results

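The genes of translation initiation, whose symbols start with Eif and a digit, were read on the arrays by 102 probe sets of 47 genes, out of 36701 probe sets tested. A probe set, a group of short oligonucleotides for one transcript, was taken as a member where the annotation of its chip gave it an Eif symbol and no other symbol. The chips U74Av2, U74Bv2 and U74Cv2 held 57, 27 and 18 of them. Another 5 probe sets paired an Eif gene with a second gene and were left out. Eif2s1, the alpha subunit of eIF2, was not analysed here.

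RNA came from 3 dishes of the 743 line of FVB/N ES cells, which overexpress STAT3-MER and were kept with 4-hydroxytamoxifen (OHT) and without LIF, and from 3 dishes of wild type (WT) FVB/N ES cells kept with LIF. Each group has 3 arrays on each of the 3 chips, 18 in all. The numbers 1 and 2 of the WT LIF arrays may not mean one dish across chips (U74Av2 against U74Bv2 and U74Cv2), and replicate numbers are therefore read within a chip. FVB/N is an inbred mouse strain. The fusion protein STAT3-MER couples STAT3 to an altered ligand-binding part of the estrogen receptor and is switched on by OHT. Its transgene is driven by a chicken beta-actin promoter. The transgene, OHT and the lack of LIF come together in one group, so that their parts cannot be told apart. Each group is 3 dishes of a single line, and p-values measure the spread between dishes, not between lines. Both lines were established on mouse embryonic fibroblasts, so a dish can hold fibroblast RNA. In such bulk samples fewer cells of a type and less RNA per cell cannot be told apart.

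In initiation, the factor eIF2 carries the initiator methionine tRNA and GTP to the small ribosomal subunit. The ribosome releases eIF2 bound to GDP, and eIF2B reloads it with GTP. Kinases that sense stress phosphorylate the alpha subunit of eIF2, which then blocks eIF2B and lowers translation. The eIF4 factors bind the cap of the mRNA and unwind it, and eIF3 joins the mRNA to the small subunit. ES cells are known for low translation that rises when they differentiate.

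The arrays differed in the transgene. An Esr1 probe set on U74Av2 gave 25826, 25574 and 31556 in STAT3-MER OHT dishes, against 40.3, 19.7 and 9.24 in WT LIF dishes, and it was the only probe set of all those tested to pass the limma threshold (adjusted p = 7.51e-06). The other Esr1 probe sets, all dimmer, and the Stat3 probe sets overlapped between the groups. Summed signals of 10 probe sets of 8 ES cell markers on U74Av2 ran between 62440.2 and 72513 in STAT3-MER OHT dishes and between 56156 and 84808 in WT LIF dishes. Those of 14 probe sets of 10 feeder fibroblast markers ran between 11637 and 42765 in STAT3-MER OHT dishes. In WT LIF dishes they ran between 18244 and 37992. On all chips, 0 of 15 feeder probe sets separated the groups. Of 13 probe sets of ES cell markers 1 did, a Utf1 probe set of U74Cv2 with all STAT3-MER OHT dishes above. Over all probe sets tested, 4.47% were above and 3.65% below.

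Across the 102 Eif probe sets, none passed a Benjamini-Hochberg adjusted p of 0.05 in the limma fit, and the smallest adjusted p was 0.596. Over all probe sets tested, 0.00272% were called higher in STAT3-MER OHT cells and 0.0% lower. With unadjusted p-values under 0.05, 2 Eif probe sets were higher and 0 were lower, where 1.86% of all probe sets were higher and 1.58% lower. In 5 Eif probe sets all STAT3-MER OHT dishes lay above all WT LIF dishes and in 1 all lay below, against 4.47% and 3.65% of all probe sets. For 49 of 102 the log2 difference was above 0. The median log2 difference was -0.01 over the Eif probe sets and 0.01 over all probe sets tested. The criteria in the methods (means that differ by over 1.5-fold and by over 100, and the methods' t-test giving p under 0.1) were met by 2 Eif probe sets upward and 0 downward, where 1.1% of all probe sets met them upward and 0.88% downward. These 2 were probe set 160365_at of Eif2s2 and the probe set of Eif4e1b. Neither met them without STAT3-MER OHT replicate 1, and without STAT3-MER OHT replicate 3 only the Eif2s2 probe set did. In the plot of differences by group of genes these points stand apart from the rest.

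**Figure D1:**
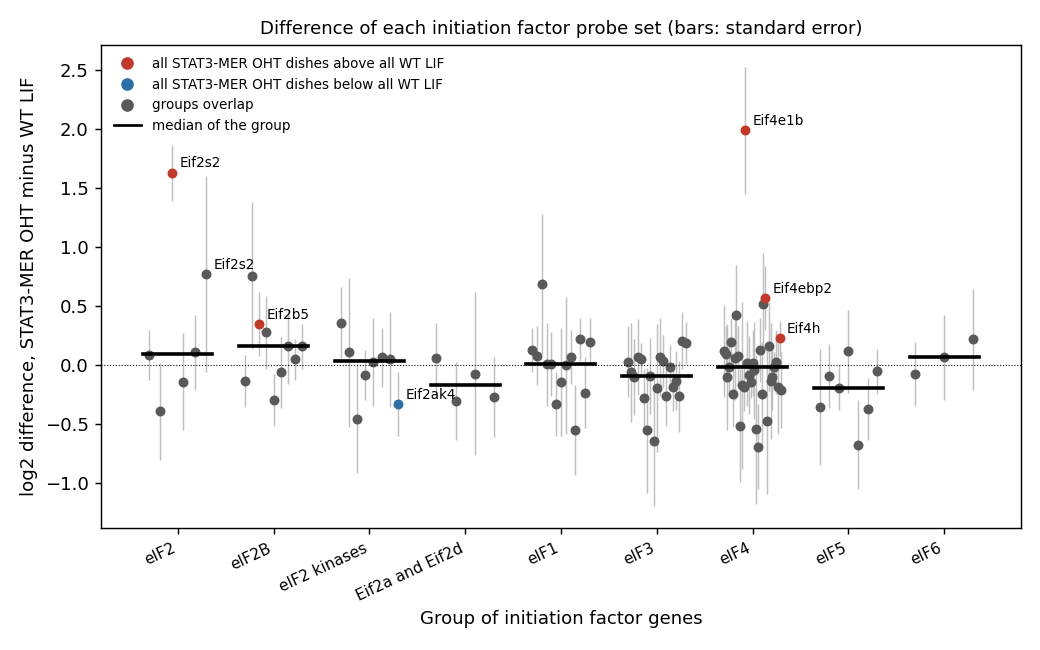
Log2 difference of signal + 32, STAT3-MER OHT minus WT LIF, for each of the 102 Eif probe sets by group of genes, with the standard error of the limma fit (3 dishes a group) and the median of each group. The Eif4e1b point at 1.99 and an Eif2s2 point at 1.63 lie above the others, which run between -0.69 and 0.77.

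Eif2s2 codes for the beta subunit of eIF2. It was read by 2 probe sets of U74Av2, and only 160365_at separated the groups. With probe set 160365_at the signal was 640, 518 and 712 in STAT3-MER OHT dishes, against 211, 157 and 170 in WT LIF dishes. All STAT3-MER OHT dishes lay above all WT LIF dishes. The means were 623 ± 98.5 in STAT3-MER OHT cells and 180 ± 28.2 in WT LIF cells (SD, n = 3 each), a ratio of 3.47. The log2 difference was 1.63 (SE 0.24, 95% interval 1.09 to 2.17), the 5th smallest unadjusted p of all probe sets tested, and the adjusted p of the limma fit was 0.596 (0.376 to 1.0 over the alternatives). This probe set was among those that the study chose on the same arrays, so its direction here is not independent evidence. The paper gives a smaller fold change for it from its own array values. It also reports Eif2s2 as higher by real-time PCR.

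The other Eif2s2 probe set, 97083_at, gave 140, 954 and 262 in STAT3-MER OHT dishes, against 678, 96.3 and 77.7 in WT LIF dishes. One dish of each group was high, STAT3-MER OHT replicate 2 and WT LIF replicate 1, and the groups overlapped. The means were 452 ± 439 in STAT3-MER OHT cells and 284 ± 341 in WT LIF cells (SD, n = 3 each). Its log2 difference was 0.77 (SE 0.83, 95% interval -1.13 to 2.68). Without STAT3-MER OHT replicate 2 it was 0.06, and without WT LIF replicate 1 it was 1.64. That of 160365_at stayed between 1.53 and 1.75 with each dish left out. On U74Av2, STAT3-MER OHT replicates 1, 2 and 3 deviated most like WT LIF replicates 2, 1 and 3 over all probe sets (r = 0.413, 0.459 and 0.288). With 97083_at each was higher than that WT LIF array. Such a pairing was seen afterwards and was not tested.

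Eif2s2 lies on chromosome 2 (154871410 to 154892906 in GRCm38.p6). Its promoter is shown because this is the eIF2 gene with a probe set that separated the groups, and the STAT3-MER transgene differs by design. The paper reports that LIF also leads to phosphorylation of STAT3, so STAT3 can be active in both groups. The RefSeq sequence covers 250 bases before and 50 bases after the start of the gene (chr2:154892857-154893156, minus strand), 5′ to 3′.
Eif2s2: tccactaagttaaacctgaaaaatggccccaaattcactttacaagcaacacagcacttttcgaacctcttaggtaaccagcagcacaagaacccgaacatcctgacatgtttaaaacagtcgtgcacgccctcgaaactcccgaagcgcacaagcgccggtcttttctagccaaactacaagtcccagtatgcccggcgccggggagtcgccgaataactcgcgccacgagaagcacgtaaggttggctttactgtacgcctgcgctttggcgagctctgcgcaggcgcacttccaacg
It holds 53.3% G and C. None of the motifs searched on both strands was found in these letters, and there are therefore no capitals. The motifs were the STAT letters TTCNNNGAA, the E-box CACGTG, TGATGCAA (a site of C/EBP and ATF4 dimers) and the cAMP response element TGACGTCA.

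Promoters of 38 of the 47 Eif genes were at hand, and 4 of them (10.5%) held the STAT letters, against 9.55% of 27025 genes. The windows are shown to set the genes with these letters beside Eif2s2, with the match in capitals and 16 bases on each side. They lie at chr17:78882726-78882766 (Eif2ak2, minus strand), chr6:70844370-70844410 (Eif2ak3, plus strand), chr7:126566409-126566449 (Eif3c, minus strand) and chr3:138527113-138527153 (Eif4e, plus strand) of GRCm38.p6. Counted from the RefSeq start that each promoter was taken around, the match begins at -178, -129, -67 and -139, in the same order. This start can differ from that of the gene. Eif4e has another start upstream, whose promoter (chr3:138525941-138526240) did not hold the STAT letters.
Eif2ak2: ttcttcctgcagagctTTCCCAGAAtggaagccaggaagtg
Eif2ak3: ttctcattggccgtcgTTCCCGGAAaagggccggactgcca
Eif3c: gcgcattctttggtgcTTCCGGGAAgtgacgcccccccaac
Eif4e: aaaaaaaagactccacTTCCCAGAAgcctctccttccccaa
None of the probe sets of these 4 genes separated the groups, where 4.47% of all probe sets tested were above and 3.65% below. The E-box was found in 9 of the 38 promoters (23.7%), those of Eif1b, Eif3a, Eif3f, Eif3k, Eif4a1, Eif4e, Eif4h, Eif5a and Eif5a2, against 8.09% of all genes. TGATGCAA and TGACGTCA were found in 0 of the 38, against 1.03% and 2.03% of all genes.

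The gamma subunit of eIF2, which binds GTP and the initiator tRNA, is coded by Eif2s3x on the X chromosome and Eif2s3y on the Y chromosome. Eif2s3x on U74Av2 gave 3349, 2007 and 3735 in STAT3-MER OHT dishes, against 1821, 3059 and 3597 in WT LIF dishes. Its log2 difference was 0.11 (95% interval -0.63 to 0.84). The groups overlapped, with STAT3-MER OHT replicate 2 and WT LIF replicate 1 at the low end. On U74Cv2, Eif2s3x gave a log2 difference of -0.39 (SE 0.41) with a probe set of 777 ± 287 in STAT3-MER OHT cells and 1067 ± 475 in WT LIF cells, and of -0.14 (SE 0.41) with a dim one (SD, n = 3 each). Eif2s3y gave 869, 824 and 629 in STAT3-MER OHT dishes, against 837, 724 and 613 in WT LIF dishes, and the log2 difference was 0.09 (95% interval -0.40 to 0.58). The name of this probe set carries the suffix f, which marks probes that may also bind related transcripts.

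**Figure D2:**
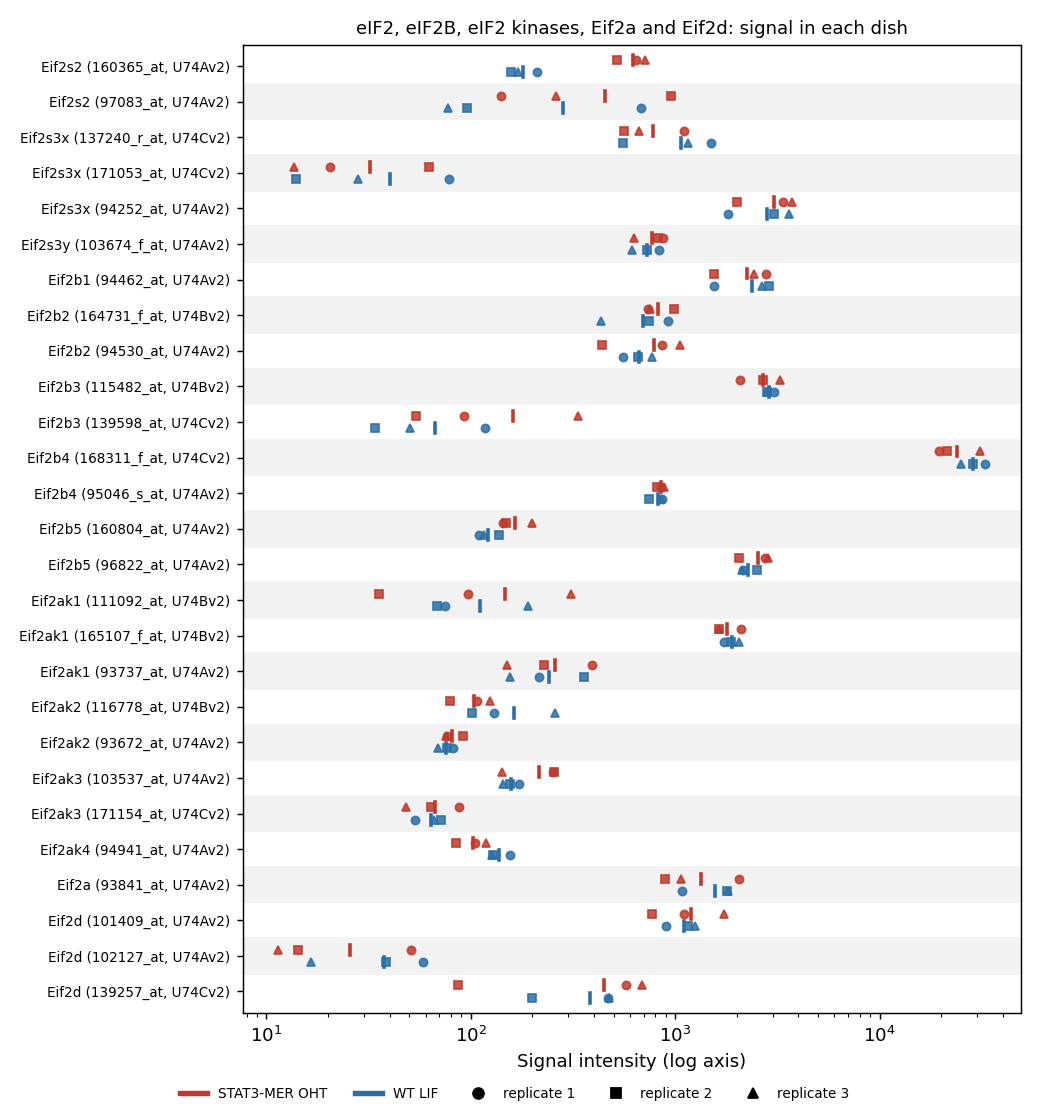
Signal intensity (log axis) of each dish for the 27 probe sets of eIF2, eIF2B, the eIF2 kinases, Eif2a and Eif2d, with STAT3-MER OHT dishes (red) above WT LIF dishes (blue) and group means as vertical bars. The colours part for Eif2s2 160365_at, Eif2b5 160804_at and Eif2ak4, and they overlap elsewhere.

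The eIF2B complex was read by 9 probe sets of 5 genes, and in 8 of them the groups overlapped. Eif2b5, the catalytic epsilon subunit, was the exception on one of its probe sets. Over all probe sets tested, all STAT3-MER OHT dishes lay above in 4.47% and below in 3.65%. Probe set 160804_at gave 143, 149 and 200 in STAT3-MER OHT dishes, against 110, 138 and 116 in WT LIF dishes, a log2 difference of 0.35 (SE 0.27). The brighter probe set 96822_at gave 2753, 2059.8 and 2846 in STAT3-MER OHT dishes, against 2147, 2506 and 2122 in WT LIF dishes, with a log2 difference of 0.16 (SE 0.19). Eif2b1, the alpha subunit, which belongs to the regulatory part, gave 2783, 1553 and 2435 in STAT3-MER OHT dishes, against 1555, 2873 and 2666 in WT LIF dishes. STAT3-MER OHT replicate 2 and WT LIF replicate 1 were low, and the log2 difference was -0.06 (95% interval -0.75 to 0.64).

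Eif2b2, the beta subunit, had log2 differences of 0.28 (SE 0.31) and 0.16 (SE 0.32). For Eif2b3, the gamma subunit, the brighter probe set gave -0.13 (SE 0.22). The dim one on U74Cv2 gave 92.1, 53.9 and 336 in STAT3-MER OHT dishes, against 117, 33.8 and 50.3 in WT LIF dishes, and its log2 difference of 0.76 (SE 0.62) was 0.15 without STAT3-MER OHT replicate 3. Eif2b4, the delta subunit, had the smallest SE of the complex, 0.17, on U74Av2. This probe set gave 855, 816 and 882 in STAT3-MER OHT dishes, against 863, 746 and 849 in WT LIF dishes, with a log2 difference of 0.05 (95% interval -0.34 to 0.45). Its U74Cv2 probe set, with the suffix f, was the brightest of all Eif probe sets at 23946 ± 6198 in STAT3-MER OHT cells and 28759 ± 3949 in WT LIF cells (SD, n = 3 each).

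The 4 eIF2 kinases were read by 8 probe sets, and 7 overlapped between the groups, where 4.47% of all probe sets tested were above and 3.65% below. Eif2ak4 (GCN2), which senses uncharged tRNA, gave 105, 84.6 and 118 in STAT3-MER OHT dishes, against 155, 129 and 127 in WT LIF dishes. All STAT3-MER OHT dishes lay below all WT LIF dishes, with a log2 difference of -0.33 (SE 0.27) and a limma adjusted p of 1.0. Eif2ak3 (PERK), the kinase of endoplasmic reticulum stress, gave 253, 255 and 142 in STAT3-MER OHT dishes, against 173, 155 and 143 in WT LIF dishes. Here 1 STAT3-MER OHT dish lay below the WT LIF dishes, and the log2 difference was 0.36 (SE 0.30). Its second probe set gave 0.03 (SE 0.37).

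Eif2ak2 (PKR), an interferon-induced kinase that binds viral RNA, gave 76.1, 91.2 and 76 in STAT3-MER OHT dishes, against 81.8, 76.3 and 69 in WT LIF dishes on U74Av2. These dishes overlapped closely, with a log2 difference of 0.07 (SE 0.25), while the U74Bv2 probe set gave -0.45 (SE 0.46). Eif2ak1 (HRI), the kinase that senses a lack of heme, had log2 differences of 0.11, -0.08 and 0.05 on its 3 probe sets. The brightest of them gave 2094, 1640.3 and 1646 in STAT3-MER OHT dishes, against 1734, 1880.3 and 2057 in WT LIF dishes.

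Eif2a and Eif2d code for factors that can bring tRNA to the ribosome without eIF2. Eif2a gave 2058, 895 and 1066 in STAT3-MER OHT dishes, against 1077, 1796 and 1810.1 in WT LIF dishes, and the log2 difference was -0.27 (SE 0.34). The groups overlapped. The 3 probe sets of Eif2d overlapped too, with log2 differences between -0.30 and 0.06.

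Eif2s2 was then compared with these genes within each U74Av2 array, as its log2 signal minus the mean log2 signal of the others. The difference within an array holds the brightness of the probes themselves, so only its change between groups was read. For 160365_at this change, STAT3-MER OHT minus WT LIF, was 1.53 against the other eIF2 subunits (2 probe sets), 1.5 against eIF2B (5 probe sets), 1.59 against the kinases (4 probe sets) and 1.66 against eIF3 and eIF4 genes (31 probe sets). All STAT3-MER OHT dishes lay above all WT LIF dishes in the 4 comparisons. Each exact two-sided permutation p was 0.1, the smallest that 3 against 3 arrays allow. The SD between dishes was at most 0.38 in either group. For 97083_at the changes were 0.68, 0.64, 0.74 and 0.80, in the same order, with an exact permutation p of 0.5 each. These permutation tests took the arrays as unpaired. Over the 8 comparisons the adjusted p was 0.2 for those of 160365_at and 0.5 for those of 97083_at. The log2 difference of 160365_at exceeded that of each of the 42 probe sets it was set against on this chip. That of 97083_at did too, at 0.77 (SE 0.83), but it was 0.06 without STAT3-MER OHT replicate 2. Eif4e1b, read on U74Cv2 and so not among the 42, had a larger log2 difference of 1.99. Eif2s2 was singled out for this comparison with earlier results known.

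**Figure D3:**
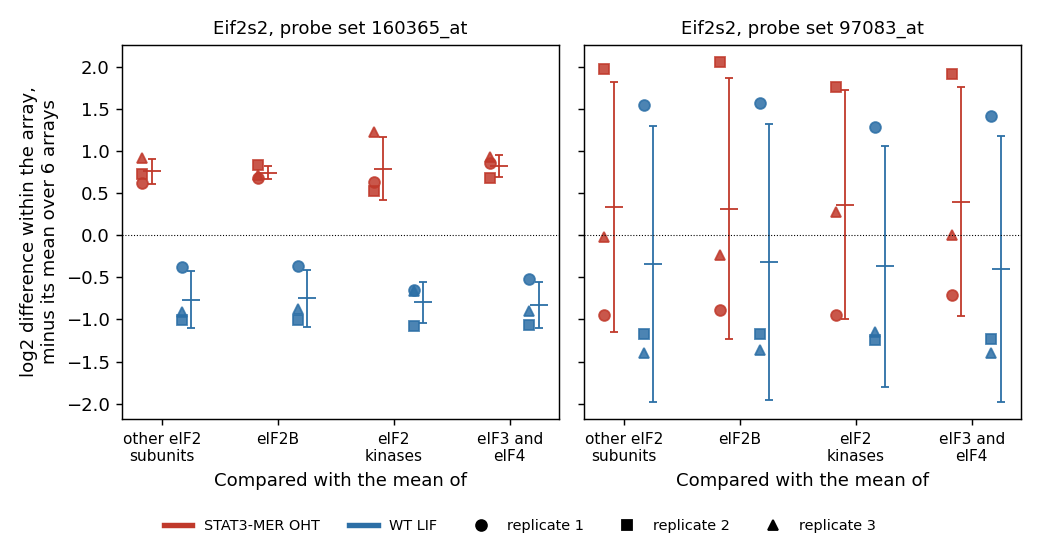
Log2 signal of each Eif2s2 probe set minus the mean of the named group of genes in the same U74Av2 array, centred on the mean over 6 arrays, with STAT3-MER OHT dishes (red) left of WT LIF dishes (blue) and the mean and SD of each group beside them (n = 3). For 160365_at all red points lie above all blue points, and for 97083_at the WT LIF replicate 1 point lies among the red ones.

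STAT3-MER OHT replicate 2 and WT LIF replicate 1 stood at the same end of their groups in many other Eif probe sets of U74Av2. In 18 of 57 probe sets both were the lowest of their group and in 7 both were the highest, 43.9% together, against 35.4% of all 12422 probe sets of this chip. The pair was singled out after its values were seen. Over the 57 probe sets, which share their arrays, the deviations of these dishes from their group means correlated with r = 0.76, and with r = 0.58 over 55 without Eif2s2 97083_at and Eif4a2, beside r = 0.46 over all probe sets of the chip. Eif4a2, a paralog of the cap-complex helicase Eif4a1, gave 2218, 4347 and 1949 in STAT3-MER OHT dishes, against 6386, 1933 and 1984 in WT LIF dishes. Eif4a1 ran the other way, with 2808, 1254 and 1685 in STAT3-MER OHT dishes, against 991, 2348 and 1824 in WT LIF dishes. Eif6, which keeps the large ribosomal subunit from joining too early, gave 2228, 1191 and 1800.2 in STAT3-MER OHT dishes, against 704, 1954 and 2177 in WT LIF dishes on this chip. On U74Bv2 Eif6 gave 390, 258 and 354 in STAT3-MER OHT dishes, against 415, 230 and 320 in WT LIF dishes, where replicate 2 was the lowest of each group.

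The ratio of 3′ to 5′ signal of the Gapdh control probe sets, a measure of RNA quality, was 9.06, 10.6 and 9.45 in STAT3-MER OHT dishes, against 15.3, 10.2 and 9.52 in WT LIF dishes on U74Av2, highest in these same dishes. On U74Bv2 and U74Cv2 WT LIF replicate 2 had the highest ratio, 20.0 and 16.2. The summed feeder signal on U74Av2 was 11637, 42765 and 29112 in STAT3-MER OHT dishes, against 35219, 18244 and 37992 in WT LIF dishes. The part of RNA quality and of feeder RNA in these values was not tested. Eif2s2 160365_at gave a log2 difference of 1.75 without STAT3-MER OHT replicate 2 and of 1.73 without WT LIF replicate 1.

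**Figure D4:**
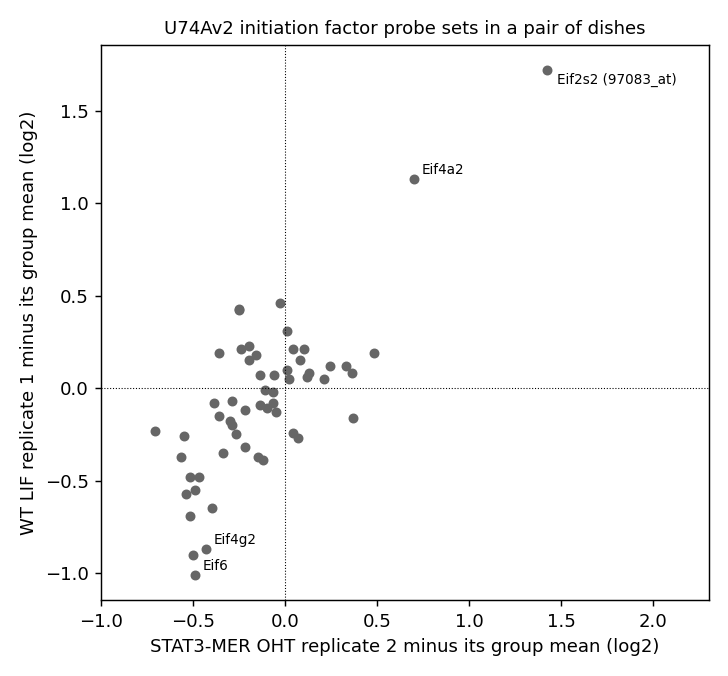
Deviation of STAT3-MER OHT replicate 2 (x axis) and of WT LIF replicate 1 (y axis) from the mean of their group in log2 units, 1 point for each of the 57 Eif probe sets of U74Av2. Eif2s2 97083_at and Eif4a2 lie far up on both axes, and Eif6 and Eif4g2 low on both.

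The cap-binding and mRNA-unwinding factors of the eIF4 group were read by 33 probe sets of 13 genes. The groups overlapped in 30 and all STAT3-MER OHT dishes were above in 3, where 4.47% of all probe sets tested were above and 3.65% below. Eif4e1b, a relative of the cap-binding protein known from oocytes and early embryos, had the largest difference of all Eif probe sets. It gave 603, 325 and 770 in STAT3-MER OHT dishes, against 103, 229 and 50.8 in WT LIF dishes. The means were 566 ± 225 in STAT3-MER OHT cells and 128 ± 91.8 in WT LIF cells (SD, n = 3 each), a ratio of 4.43. The log2 difference was 1.99 (SE 0.54, 95% interval 0.76 to 3.21) and lay between 1.59 and 2.42 with each dish left out, and the limma adjusted p was 1.0. Eif4e1b lies on chromosome 13 (54783994 to 54788459 in GRCm38.p6).

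Apart from Eif4e1b, the genes of the cap-binding family (Eif4e, Eif4e2 and Eif4e3) did not separate the groups. Eif4e, the main one, had log2 differences between -0.21 and -0.14 on 3 probe sets. Eif4e2, which competes with eIF4E for caps and represses translation, had 7 probe sets with log2 differences between -0.47 and 0.43. The probe sets of Eif4e3 gave -0.51 (SE 0.48) and -0.54 (SE 0.63). Of the scaffolds, Eif4g2, which lacks the part that binds eIF4E and is known to be needed for mouse ES cells to differentiate, gave 0.12 (SE 0.39) and 0.13 (SE 0.27), and Eif4g3 gave between -0.18 and 0.52.

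The 4E-binding proteins hold eIF4E away from the scaffold. Eif4ebp1, with the brightest eIF4 probe set, gave 5519, 5917 and 4087 in STAT3-MER OHT dishes, against 4584, 4677 and 4057 in WT LIF dishes, with a log2 difference of 0.20 (SE 0.20). The groups overlapped. One of 4 probe sets of Eif4ebp2 separated them at a low signal, with 40.3, 37.6 and 41.3 in STAT3-MER OHT dishes, against 7.56, 30.5 and 13.3 in WT LIF dishes (log2 difference 0.57, SE 0.27). The brighter probe sets of Eif4ebp2 gave -0.24 (SE 0.28) and -0.10 (SE 0.28). Eif4h, a cofactor of the helicase, was also above at a low signal, with 14.3, 14.7 and 27.4 in STAT3-MER OHT dishes, against 10.8, 12.2 and 10.2 in WT LIF dishes (log2 difference 0.23, SE 0.15). Eif4enif1, which carries eIF4E into the nucleus, had the lowest log2 difference of the group, -0.69 (SE 0.36), on a dim probe set with 15.3, 15.6 and 11.6 in STAT3-MER OHT dishes, against 9.95, 62 and 72.7 in WT LIF dishes. WT LIF replicate 1 lay below all STAT3-MER OHT dishes there.

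The eIF3 subunits were read by 19 probe sets of 11 genes. The groups overlapped in all 19, where 4.47% of all probe sets tested were above and 3.65% below. The log2 differences ran between -0.64 and 0.21, with a median of -0.09. Eif3l, the brightest, gave 9282, 5678 and 10360 in STAT3-MER OHT dishes, against 7029.6, 10924 and 12202 in WT LIF dishes (log2 difference -0.26, SE 0.30). Eif3d, which can bind certain caps itself, gave 6468, 5686 and 6655 in STAT3-MER OHT dishes, against 5775, 5939 and 4836 in WT LIF dishes (log2 difference 0.19, SE 0.18). The lowest value of the group, -0.64 (SE 0.55), came from a probe set of Eif3i with 39, 140 and 45.1 in STAT3-MER OHT dishes, against 229, 138 and 49.1 in WT LIF dishes, and the brighter probe sets of Eif3i gave -0.09 and 0.07.

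**Figure D5:**
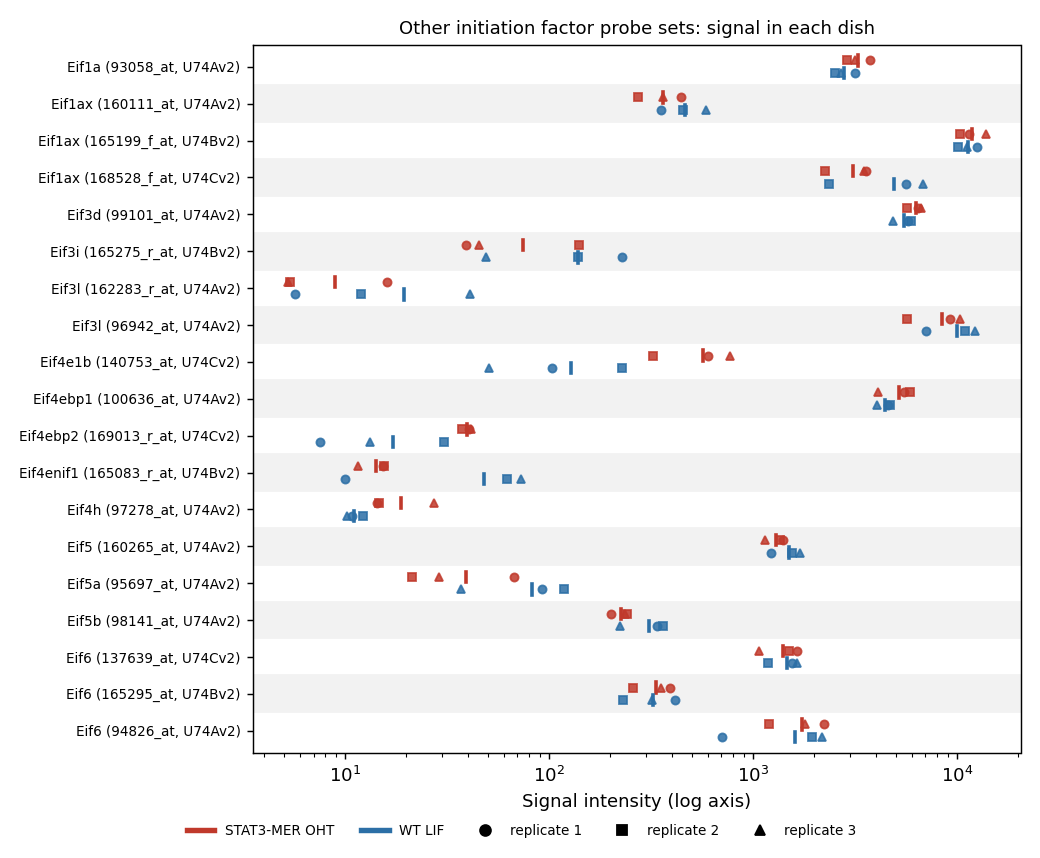
Signal intensity (log axis) of each dish for the named probe sets of the eIF1, eIF3, eIF4, eIF5 and eIF6 groups, with STAT3-MER OHT dishes (red) above WT LIF dishes (blue) and group means as vertical bars. The colours part for Eif4e1b at signals between 50.8 and 770 and for Eif4ebp2 and Eif4h at signals below 50.

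The eIF1 group, which helps the ribosome find the start codon, had 13 probe sets of 4 genes. All 13 overlapped, where 4.47% of all probe sets tested were above and 3.65% below. Eif1ax, the X-linked gene of eIF1A, had 8 of the 13 with log2 differences between -0.55 and 0.69. Its brightest, with the suffix f, gave 11479, 10359 and 13817 in STAT3-MER OHT dishes, against 12537, 10147 and 11172 in WT LIF dishes (log2 difference 0.07, SE 0.23). Eif1a gave 3727, 2897 and 3149 in STAT3-MER OHT dishes, against 3160.3, 2530.3 and 2698 in WT LIF dishes (log2 difference 0.22, SE 0.18). The 7 probe sets of the eIF5 group overlapped as well. Eif5, the factor that makes eIF2 hydrolyse GTP, gave 1396, 1363 and 1144 in STAT3-MER OHT dishes, against 1227, 1550.3 and 1708 in WT LIF dishes (log2 difference -0.19, SE 0.19). Eif5b, which joins the ribosomal subunits, gave 202, 240 and 237 in STAT3-MER OHT dishes, against 337, 363 and 222 in WT LIF dishes on one probe set (log2 difference -0.37, SE 0.26), and its other probe sets gave -0.09 and -0.05. Eif5a, the hypusine-carrying factor, was read at low signal and gave -0.67 (SE 0.38).

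Of 35 other genes of translation and its control, 34 were read, by 79 probe sets, and none passed the adjusted threshold of the limma fit. Without adjustment, the limma p was under 0.05 for 3 higher probe sets and for 1 lower one, against 1.86% and 1.58% of all probe sets. All STAT3-MER OHT dishes lay above all WT LIF dishes in 4 and below in 1, against 4.47% and 3.65% of all probe sets. The median log2 difference was 0.02, beside 0.01 over all probe sets. Ppp1r15b, the subunit that directs a phosphatase to the alpha subunit of eIF2, gave 1459, 1988 and 1904 in STAT3-MER OHT dishes, against 1509.7, 1038 and 933 in WT LIF dishes (log2 difference 0.62, SE 0.23). It was likewise a gene that the study chose on these arrays, and the paper also reports it as higher by real-time PCR. Its stress-induced relative Ppp1r15a gave 179, 472 and 353 in STAT3-MER OHT dishes, against 635, 413 and 459 in WT LIF dishes (log2 difference -0.61, SE 0.35).

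Mknk2, a kinase of eIF4E, gave 87.9, 107 and 45 on a dim probe set in STAT3-MER OHT dishes, against 23.7, 32.5 and 27 in WT LIF dishes (log2 difference 0.87, SE 0.28). Its brighter probe set overlapped, with 554 ± 138 in STAT3-MER OHT cells and 575 ± 199 in WT LIF cells (SD, n = 3 each) and a log2 difference of -0.03 (SE 0.29). Akt1s1, an inhibitor in the mTOR complex that controls the 4E-binding proteins, gave 6807, 5366 and 4426 in STAT3-MER OHT dishes, against 4346, 3964 and 1984 in WT LIF dishes on U74Cv2 (log2 difference 0.74, SE 0.32). Its dim probe set on U74Av2 overlapped, with a log2 difference of 0.06 (SE 0.33). All STAT3-MER OHT dishes were above all WT LIF dishes on 1 of 2 probe sets for each of these genes. Paip1, which links the poly(A)-binding protein to initiation, gave 42.6, 33.2 and 67.1 in STAT3-MER OHT dishes, against 200.0, 145 and 82.8 in WT LIF dishes on 1 of 3 probe sets (log2 difference -1.1, SE 0.43), with all STAT3-MER OHT dishes below. The groups overlapped on the others, with -0.76 (SE 0.58) on a dim one and -0.14 (SE 0.33) on the brightest, which gave 693 ± 27.3 in STAT3-MER OHT cells and 818 ± 361 in WT LIF cells (SD, n = 3 each).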

How the data were processed

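RNA of 3 STAT3-MER OHT dishes and 3 WT LIF dishes was amplified by the authors in 2 rounds and hybridized to U74Av2, U74Bv2 and U74Cv2, which gives 18 arrays. The authors deposited 1 linear signal intensity per probe set and array, with no detection call. The submitters' processing notes name MAS5. A signal near background could thus not be told from one above it, and 20 of the 102 Eif probe sets had a mean under 100. The number of arrays limits the precision. The study's own comparison rested on dChip values, not used here.

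Groups came from the labels. One unnumbered U74Av2 STAT3-MER array was given number 2, which was left over, and an array labelled with both U74Bv2 and U74Cv2 was used as U74Cv2, which its probe sets match. Within a chip, arrays were brought to a common trimmed mean (2% off each side). log2(signal + 32) was compared with limma 3.58.1 in R 4.3.3 (lmFit, eBayes with trend, 1 fit per chip, two-sided) with Benjamini-Hochberg adjustment over 36701 probe sets, 198 controls left out. The fit was tested on simulated arrays. Fold changes on this scale understate those of dim probe sets. The study does not give the form of its test, and unequal variances were allowed here in the methods' t-test for the fold and difference criteria. Exact permutation tests used numpy 2.4.6 and scipy 1.17.1, and figures matplotlib 3.10.9.

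Symbols came from the chip annotation, and all 102 matched RefSeq genes of GRCm38.p6. Promoters are RefSeq sequences of the same build, and a gene with several starts counted once if any start held the motif. Probe sets of a gene were kept apart.

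Every probe set of Eif2s2 and every gene of eIF2, eIF2B, the kinases, Eif2a and Eif2d were to be named, with the 3 smallest p, the brightest and the non-overlapping probe sets of each other group and 4 of the 35 further genes. Further genes and probe sets (Eif4a1, Eif4a2, the other eIF4 genes, the brighter probe sets of a gene and Ppp1r15a) were named after their values were seen, and the comparison with the kinases within arrays was added then. The members, lists and rules were chosen with earlier results of these data known. Alternatives were signals as deposited, median and quantile scaling, pseudocounts of 8 and 100, removal of dim probe sets (mean under 100), no variance trend, adjustment chip by chip, the replicate number as a block, every dish left out once, equal variances and a fold of 2 for the criteria.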

Additional observations from a re-analysis of the deposited data

How the results depend on the processing

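The log2 difference of Eif2s2 160365_at kept its direction under every alternative run, and no Eif probe set passed the adjusted threshold under any of them. Over the 102 probe sets, 111 of 1510 values changed sign, in 57 probe sets, and in all but 2 of these probe sets only with a dish left out. The 1510 include alternatives that cannot move a log2 difference. These were no variance trend, adjustment chip by chip, removal of dim probe sets and the replicate block. The direction of Eif2s2 160365_at was likewise fixed under them. With a pseudocount of 100 the change of Eif2s2 160365_at against eIF3 and eIF4 genes was 1.39. With a dish left out, that of 97083_at ran between -0.14 and 1.63 against the other eIF2 subunits and between -0.23 and 1.59 against eIF2B. The criteria were then met upward by 0 to 2 Eif probe sets and downward by 0 to 1 (Eif1ax 168528_f_at without WT LIF replicate 2, Eif5b 98141_at without WT LIF replicate 3).

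The log2 difference with a dish left out ran from -0.12 to 0.17 for Eif2ak3 171154_at, which was -0.02 after median and -0.07 after quantile scaling, from -0.27 to 0.34 for Eif2ak1 93737_at, from -0.52 to 0.65 for Eif2ak1 111092_at, from -0.28 to 0.05 for Eif2b3 115482_at, from -0.33 to 0.19 for Eif2b1, from -0.09 to 0.52 for Eif2b2 94530_at, from -0.02 to 0.50 for Eif2b2 164731_f_at and from -0.01 to 0.09 for Eif2b4 95046_s_at. It ran from -0.54 to 0.76 for Eif2d 139257_at, from -0.24 to 0.33 for Eif2d 101409_at, from -0.18 to 0.38 for Eif2s3x 94252_at, from -0.46 to 0.22 for Eif2s3x 171053_at, from -0.02 to 0.23 for Eif2s3y, from -0.04 to 0.16 for Eif1ax 165199_f_at, and for Eif6 from -0.13 to 0.25 (165295_at), from -0.21 to 0.11 (137639_at) and from -0.29 to 0.51 (94826_at).

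Dishes were taken to share only a number, since on U74Av2 not every same-numbered pair deviated together. The r of pairs 1, 2 and 3 was -0.296, -0.335 and 0.288 on U74Av2, 0.18, 0.211 and 0.13 on U74Bv2, and 0.107, 0.132 and 0.07 on U74Cv2. On U74Bv2 and U74Cv2 each dish correlated best with its own number. On U74Av2 STAT3-MER OHT replicate 1 went with WT LIF replicate 2 (0.413) and replicate 2 with WT LIF replicate 1 (0.459), so the block may not join the same dishes there. Leaving out WT LIF replicate 1 or 2 may likewise leave out different dishes on U74Av2 and on the other chips. With the number as a replicate block, 0 Eif probe sets passed the adjusted threshold. No block with WT LIF replicates 1 and 2 of U74Av2 exchanged was run, so pairing of dishes was not tested on that chip. The block cannot move a log2 difference, since every number holds an array of each group. That of Eif2s2 160365_at thus stayed at 1.63. The signals carry no detection call, so 20 Eif probe sets with a mean under 100 have no known distance from background.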
